A study of Mus musculus with 3 samples.

Results

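The EGF receptor family and the ligands that bind it were followed through mouse intestinal epithelium by single-cell RNA sequencing (scRNA-seq). The set held 8 genes of the 51912 in the feature list, and each was matched by its symbol. It comprised the receptors Egfr, Erbb2 and Erbb3, the receptor brake Lrig1, and the ligands Areg, Ereg, Hbegf and Tgfa. Values were counts of unique molecular identifiers (UMIs, tags that mark single captured transcripts) over cells with at least 1000 detected genes and at most 15% of UMIs from mitochondrial genes.

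Ligands of this family are made as membrane-bound precursors and are released by shedding proteases such as ADAM17. A bound receptor pairs with another family member and signals through RAS and the MAP kinases. ERBB2 has no known ligand of its own and ERBB3 has a weak kinase, so both act mainly in pairs. In the intestine, EGF receptor signalling keeps stem cells and their progeny dividing, and LRIG1, itself a marker of stem and progenitor cells, promotes removal of the receptors from the cell surface.

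The study deleted Arid3a, which encodes a transcription factor, in the intestinal epithelium. Arid3a cKO mice (VillinCreERT2, Arid3a fl/fl; 2 libraries) were compared with control mice carrying VillinCreERT2 alone (WT; 1 library). The series describes 2 biological replicates of each condition, and 1 WT library was analysed here, on which every genotype value rests. Every animal received tamoxifen at 8 to 10 weeks of age and was taken 1 month after the first dose, so the controls shared both the recombinase and the drug. The Villin promoter drives the recombinase in intestinal epithelial cells, and the samples were dissociated crypts sorted for live Epcam+ CD45- CD31- cells.

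The members lie at separate loci apart from the neighbours Ereg and Areg, which follow each other on the forward strand of chromosome 5, 45952 bases apart in GRCm38 (GENCODE M21). Ereg spans chr5:91074622-91093646 and Areg spans chr5:91139599-91148432. Egfr (chr11:16752203-16918158) and Erbb2 (chr11:98412470-98437716) are both on chromosome 11, Erbb3 is at chr10:128567523-128589652, Lrig1 at chr6:94604529-94700158 and Tgfa at chr6:86195223-86275719. Among these genes Areg and Lrig1 had the most opposite levels between enterocytes and crypt cells, and their upstream sequences are therefore shown. Each is the 250 bases before the RefSeq start of the gene in GRCm38.p6, written 5′ to 3′ on the gene's strand (Areg, chr5:91139349-91139598, forward; Lrig1, chr6:94700146-94700395, reverse). Capitals mark a cAMP response element (CRE, TGACGTCA) and a TATA box (TATAAA).
Areg: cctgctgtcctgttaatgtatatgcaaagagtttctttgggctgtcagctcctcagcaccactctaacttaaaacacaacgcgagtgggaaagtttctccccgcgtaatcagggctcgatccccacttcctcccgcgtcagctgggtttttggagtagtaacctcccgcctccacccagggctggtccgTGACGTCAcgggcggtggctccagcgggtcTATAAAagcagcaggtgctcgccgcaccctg
Lrig1: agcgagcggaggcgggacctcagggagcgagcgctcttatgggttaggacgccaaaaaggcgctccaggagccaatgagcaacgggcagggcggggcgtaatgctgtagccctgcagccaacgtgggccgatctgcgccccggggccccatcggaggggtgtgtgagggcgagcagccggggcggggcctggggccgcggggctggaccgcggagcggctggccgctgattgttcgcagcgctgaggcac

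In the Areg window the CRE began 61 bases and the TATA box 31 bases before the start. Of 32851 promoters of the same length, read on both strands, 508 (1.55%) held the CRE and 4063 (12.4%) the TATA box. The AP-1 site TGANTCA, which cannot share a base with these CRE letters, was held by 2217 (6.75%) and not by Areg. None of the motifs was present in the windows of Lrig1, Egfr, Erbb2 or Tgfa. The GC content was 57.2% for Areg and 71.6% for Lrig1, beside a median of 52.4% over all promoters.

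After filtering, 5594 of 25554 barcodes (21.9%) remained, with 2134 and 1550 cells in Arid3a cKO 1 and 2 and 1910 in WT. The kept share was 31.2%, 22.5% and 16.2% of barcodes in cKO 1, cKO 2 and WT. In the same order, 66.4%, 75.6% and 79.2% of barcodes were over the mitochondrial limit. The part of this gradient in the genotype differences was not tested. Kept libraries held 58169310 to 70922480 UMIs, and the median per cell was 31391.5, 35764 and 29895. Arid3a was at 0.592 and 0.894 counts per 1000000 UMIs (CPM) in the cKO libraries and at 2.57 CPM in WT, a log2 fold change of -1.76 (adjusted p = 0.0447, edgeR quasi-likelihood test on summed counts). No more than 2 kept barcodes were shared by any pair of libraries. Markers of other cell types summed to 1.92, 2.91 and 7.02 CPM in cKO 1, cKO 2 and WT for immune cells (9 genes, none at 0), to 1.89, 1.84 and 2.54 CPM for endothelial cells (5 genes, 1 at 0) and to 0.0282, 4.19 and 0.128 CPM for stromal cells (6 genes), and their part in the results below was not tested.

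Cells were clustered without the genes of the EGF receptor pathway and named from marker genes. Intestinal stem cell (ISC)-like cells numbered 1073, transit-amplifying (TA)-like cells 697, enterocyte-like cells 2136, goblet-like cells 371, enteroendocrine-like cells 227, tuft-like cells 124 and Paneth-like cells 80. A cluster of 747 cells led by genes such as Ccl20 and Edn2 met the naming rule for no marker list and stayed unnamed (the Ccl20 cluster), as did 139 cells led by Gm42418. Ifit3 and other interferon-response genes led a small cluster of 58 enterocyte-like cells. Levels were taken from UMIs summed per library and class, in which fewer expressing cells and less RNA per cell cannot be told apart. In cells thinned to 23000 UMIs, Lrig1 was seen in 50.9%, 45.6% and 49.6% of ISC-like cells of cKO 1, cKO 2 and WT. It was seen in 11.3%, 4.82% and 11.8% of enterocyte-like cells. For Areg these shares were 48.5%, 39.7% and 50.4% against 63.6%, 63.1% and 71.9%. Such shares also depend on the level per cell. The orders of levels below cover the named classes and the Ccl20 cluster and leave out the Gm42418 cluster, which held 377172 to 1032927 UMIs a library. Its values had wide counting errors. Its means would have stood first for Erbb2 (46.8 ± 19.98 CPM) and after goblet-like cells for Tgfa (9.82 ± 3.76 CPM). They would have stood last for Lrig1 (2.82 ± 2.91 CPM) and Egfr (1.53 ± 1.37 CPM). For Ereg the mean of 2.77 ± 4.80 CPM would have stood first, but Ereg was seen there in cKO 2 alone (4 UMIs, 8.31 CPM). Since 3′ counts are not scaled to transcript length, levels were compared within a gene only.

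Among the receptors, Egfr was highest in enteroendocrine-like cells, at 35.6, 35.6 and 34.9 CPM in cKO 1, cKO 2 and WT. These values came mostly from the larger of 2 enteroendocrine clusters, which stood at 50.7, 54.4 and 55.4 CPM, against 8.17, 12.3 and 10.98 CPM in the smaller one led by Ghrl and Gip. That smaller cluster (52 cells) had 3 of 14 enteroendocrine markers at 1.5-fold or more. TA-like cells (mean 19.9 ± 2.46 CPM, SD over 3 libraries), ISC-like cells (18.3 ± 2.32 CPM) and goblet-like cells (16.0 ± 0.761 CPM) followed, with overlapping ranges between neighbours in this order. Egfr was low in the Ccl20 cluster (7.43 ± 0.828 CPM) and in enterocyte-like cells (4.09 ± 0.225 CPM), and Paneth-like cells (2.84 ± 2.84 CPM) overlapped the latter.

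Erbb2 and Erbb3 had another order. Erbb2 was highest in enterocyte-like cells (43.7 ± 2.81 CPM) and the Ccl20 cluster (43.6 ± 3.38 CPM), whose ranges overlapped, and lowest in Paneth-like cells (4.79 ± 2.23 CPM). ISC-like, TA-like, goblet-like and enteroendocrine-like cells lay between 26.6 and 33.8 CPM on average, each overlapping its neighbour. Erbb3 was at 120.7, 120.1 and 123.7 CPM in enterocyte-like cells of cKO 1, cKO 2 and WT, and its range there did not overlap that of the Ccl20 cluster (113.3 ± 2.22 CPM). Tuft-like, ISC-like, TA-like and goblet-like cells formed an overlapping run from 77.3 to 64.4 CPM, and Paneth-like cells were again lowest (14.7 ± 5.64 CPM).

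Lrig1 was highest in the dividing crypt compartment. ISC-like cells held 36.9, 32.7 and 35.7 CPM in cKO 1, cKO 2 and WT, and TA-like cells held 36.5, 29.6 and 33.3 CPM. These classes overlapped each other and no other class. From tuft-like cells (25.1 ± 1.67 CPM) down to Paneth-like cells (10.7 ± 5.70 CPM) each class overlapped the next, and enterocyte-like cells were lowest of the classes ordered at 4.69 ± 1.65 CPM.

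The ligands divided by class in other ways. Areg, which encodes amphiregulin, was at 244.0, 191.1 and 237.6 CPM in enterocyte-like cells of cKO 1, cKO 2 and WT and at 260.9, 151.2 and 122.7 CPM in the Ccl20 cluster. All other named classes were below both, from 69.6 ± 14.7 CPM in enteroendocrine-like cells to 5.63 ± 3.21 CPM in Paneth-like cells. Within the enterocyte-like cells, Areg was highest in a cluster led by Ms4a18 (400.3, 265.5 and 340.2 CPM), in every library above the other enterocyte clusters. Areg was itself among the 10 leading genes of that cluster, although it was not used to form it.

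Ereg, which encodes epiregulin, was scarce, with 91, 30 and 66 UMIs in enterocyte-like cells of cKO 1, cKO 2 and WT. This corresponded to 3.44, 1.44 and 3.09 CPM, above every other named class and the Ccl20 cluster in each library. No Ereg UMI was seen in Paneth-like or tuft-like cells.

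Hbegf, which encodes heparin-binding EGF-like growth factor, was broadly expressed. Its mean was 439.8 ± 167.7 CPM in the Ccl20 cluster, 283.3 ± 97.3 CPM in ISC-like, 278.9 ± 32.2 CPM in enterocyte-like and 244.4 ± 72.7 CPM in TA-like cells, and neighbours in this order overlapped down to tuft-like cells (121.5 ± 53.2 CPM). Paneth-like cells alone stood clear of the class above, at 26.8 ± 18.9 CPM. Tgfa was highest in goblet-like cells, at 18.2, 12.1 and 12.6 CPM in cKO 1, cKO 2 and WT. Enterocyte-like cells followed at 8.02 ± 0.903 CPM, and all remaining classes except Paneth-like cells (1.10 ± 0.620 CPM) overlapped their neighbour.

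Paneth-like cells had the highest median UMIs of any class, 119501 to 177412 per cell in the 3 libraries. CPM is a share of all UMIs, so a low CPM in this class need not mean few transcripts per cell. Lrig1, for example, had 105 UMIs in 80 Paneth-like cells and 1265 UMIs in 1073 ISC-like cells. The share of low levels in other classes that comes from free RNA was not tested. The plot of CPM by class and library shows these orders.

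**Figure D1:**
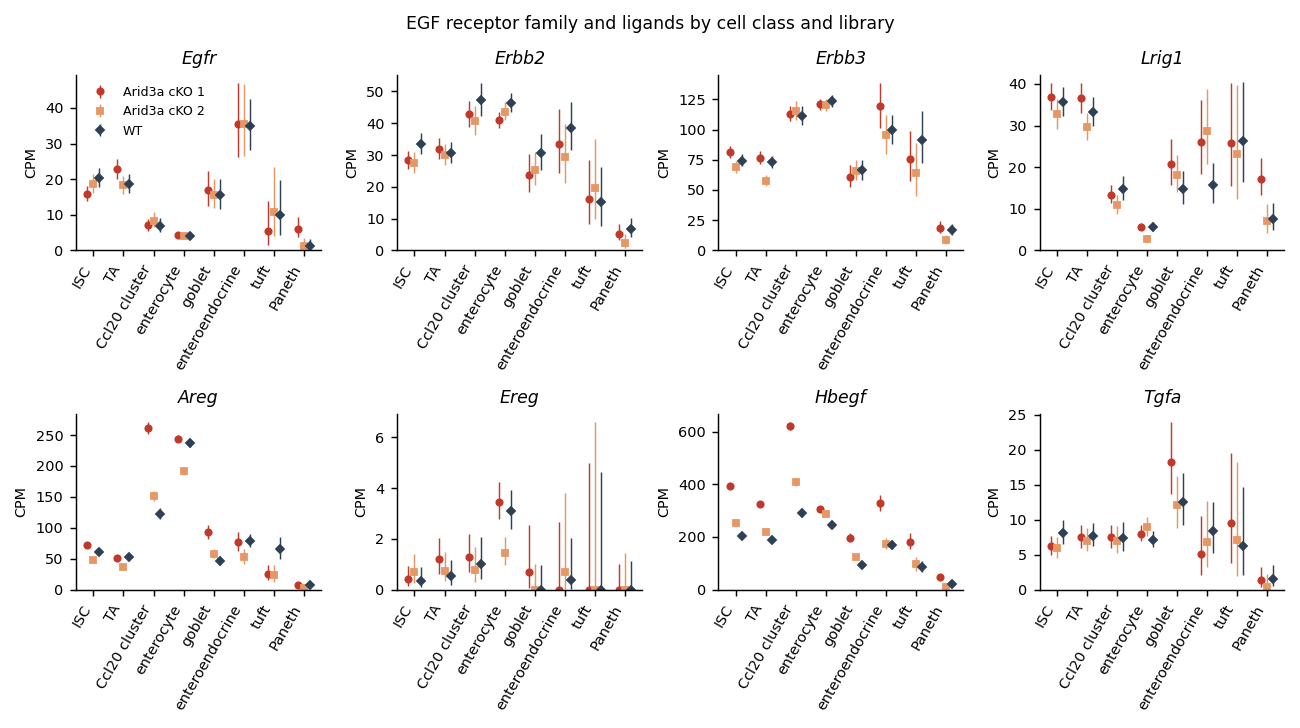
Counts per 1000000 UMIs (CPM, linear axis from 0) of the 8 genes in 8 cell classes; points are the 3 libraries and bars exact 95% Poisson intervals, which cover counting error only. Lrig1 is highest in ISC-like and TA-like cells and lowest in enterocyte-like cells (4.69 CPM on average), whereas Areg is highest in enterocyte-like cells and the Ccl20 cluster (224.2 and 178.3 CPM).

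The split between crypt cells and enterocytes was then tested with the library as a block. ISC-like and TA-like cells were summed together (1770 cells) and set against enterocyte-like cells. Of 13496 genes tested, 11274 (83.5%) differed at an adjusted p under 0.05 (edgeR), 39.9% higher and 43.6% lower in enterocytes, so a call alone was the common outcome. All 8 members were called, 6 higher and 2 lower in enterocytes.

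Egfr was at 18.8, 18.5 and 19.6 CPM in ISC and TA cells of cKO 1, cKO 2 and WT and at 4.35, 3.98 and 3.94 CPM in enterocytes. Every enterocyte value was below every crypt value, and the log2 fold change was -1.66 ± 0.103 (SE; adjusted p = 1.63e-08). Lrig1 was at 36.7, 31.1 and 34.5 CPM against 5.67, 2.78 and 5.62 CPM, a log2 fold change of -2.32 ± 0.136 (adjusted p = 9.06e-09). Both genes were thus lower in enterocytes in all 3 libraries.

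The partner receptors went the other way. Erbb2 was at 29.9, 28.8 and 32.0 CPM in ISC and TA cells and at 40.9, 43.7 and 46.5 CPM in enterocytes, without overlap (log2 fold change 1.08 ± 0.0747, adjusted p = 4.56e-08). Erbb3 was at 79.1, 63.0 and 73.6 CPM against 120.7, 120.1 and 123.7 CPM, again without overlap (1.31 ± 0.0706, adjusted p = 4.17e-09).

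Among the ligands Areg showed the largest difference, from 62.9, 41.9 and 57.0 CPM in ISC and TA cells to the enterocyte levels given above (log2 fold change 2.61 ± 0.0669, adjusted p = 6.00e-12). Ereg rose from 0.766, 0.721 and 0.440 CPM (2.58 ± 0.299, adjusted p = 5.70e-06). Hbegf and Tgfa were called with smaller values of 0.66 ± 0.0952 and 0.74 ± 0.130. For Hbegf the classes overlapped, at 363.4, 235.3 and 196.9 CPM in ISC and TA cells and 307.2, 285.5 and 243.9 CPM in enterocytes, and in cKO 1 the crypt value was the higher one.

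These fold changes carry trimmed mean of M-values (TMM) scaling, whose factors ranged from 0.809 to 1.23 between the 6 sums. Without TMM the median log2 fold change of all genes moved from -0.0902 to -0.637, and the share of genes called moved to 85.4%, split into 25.8% higher and 59.6% lower. The direction of every member held, with Egfr at -2.21, Lrig1 at -2.87, Erbb2 at 0.53, Erbb3 at 0.76, Areg at 2.06 and Ereg at 2.03. Hbegf (0.11, adjusted p = 0.279) and Tgfa (0.19, adjusted p = 0.195) were no longer called.

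Other genes of the pathway were counted in the same contrast. Of 12 feedback brakes of receptor signalling 4 were higher and 6 lower in enterocytes (2 and 8 without TMM). Among the lower ones were the Sprouty genes Spry1, an inhibitor of RAS signalling, at 2.10 ± 1.17 CPM in enterocytes against 22.0 ± 2.03 CPM in ISC and TA cells, and its relative Spry2, at 5.04 ± 1.46 against 13.7 ± 2.06 CPM. Both were named after their values were seen. Of 16 signal relay genes from Grb2 to the MAP kinases 10 were higher and 1 lower (5 and 8 without TMM), of 8 MAP kinase target genes 2 were higher and 5 lower (2 and 6), and of 4 shedding genes 1 was higher and 1 lower (0 and 3). The median log2 fold change was -0.17 for the brakes, 0.38 for the relay and -1.50 for the MAP kinase targets (-0.71, -0.17 and -2.05 without TMM), so the relay list changed sign with the scaling.

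The remaining 8 receptors and ligands of the family were sparse. Erbb4 and Nrg3 had no UMI in any library, which allows up to 0.0516 CPM in the shallowest library at 3 counts. Epgn, Nrg1 and Nrg2 had at most 6 UMIs in any library, and Egf had 31, 30 and 26. Btc, which encodes betacellulin, was at 19.6, 22.6 and 24.6 CPM in goblet-like cells of cKO 1, cKO 2 and WT, above all other classes, and was lower in enterocytes than in ISC and TA cells (log2 fold change -0.66 ± 0.137, adjusted p = 0.000723). Nrg4, a neuregulin, was highest in tuft-like cells (12.2 ± 5.82 CPM, from 26 UMIs) and was higher in enterocytes (1.07 ± 0.152, adjusted p = 3.32e-05).

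Enterocyte-like cells were next ordered within each library from villus base to tip by the mean log level of 8 tip genes minus that of 5 base genes and cut into 5 equal bins. The order rests on these marker genes, since the position of cells was not measured. Areg was the 1 member of 8 whose last bin differed from the first by at least 0.5 on the log2 scale in the same direction in all 3 libraries. It went from 418.8 to 114.2 CPM in cKO 1, from 232.8 to 135.4 CPM in cKO 2 and from 302.6 to 116.2 CPM in WT. The log2 differences were -1.83, -0.76 and -1.34, with a mean of -1.31 ± 0.536 (SD, n = 3). Without the integration step, which left the Ms4a18-led cells out of the enterocyte-like class, no member met this size in all 3 libraries and the mean for Areg was -0.95.

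Hbegf was also lower in the last bin in each library, with log2 differences of -1.02, -0.28 and -0.74. Lrig1 differed by -0.19, -0.64 and -0.80 at 22, 4 and 10 UMIs in the last bin. Erbb3 gave values of both signs (0.28, 0.51 and -0.08), and Egfr and Tgfa had means of -0.02 and 0.03. Apoa4, one of the tip genes that set the order, went from 1070 to 10136 CPM in cKO 1 and from 2087 to 7346 CPM in WT, as its use in the order requires. The plot of the bins shows the Areg and Hbegf gradients beside it.

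**Figure D2:**
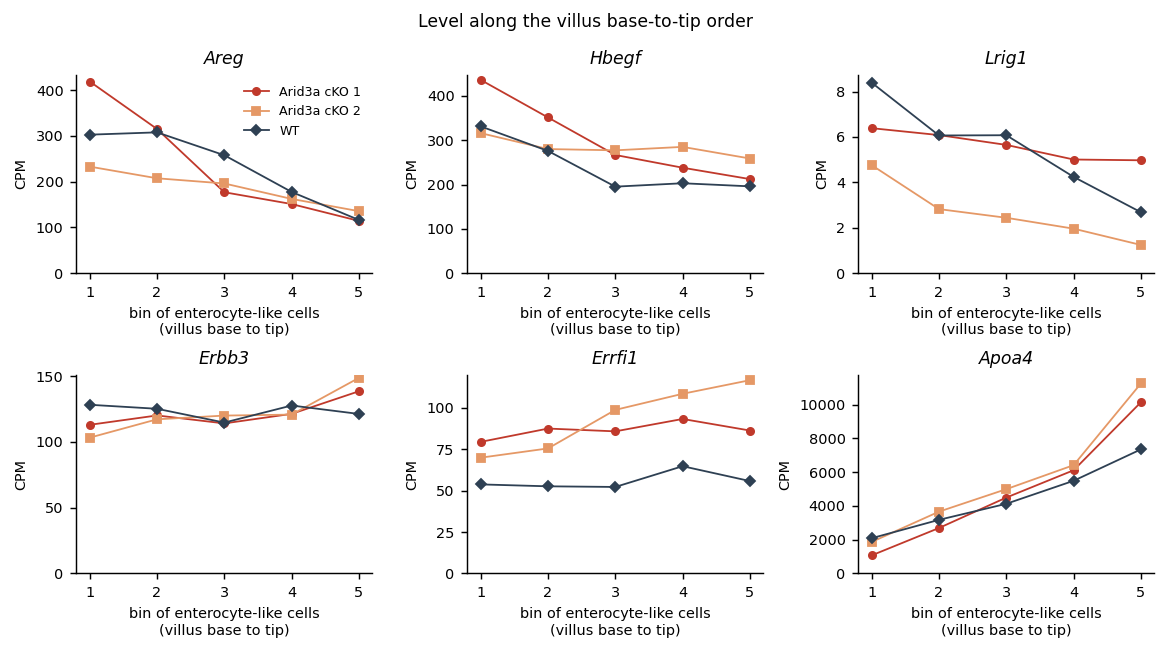
CPM (linear axis from 0) in 5 equal bins of enterocyte-like cells ordered from villus base (1) to tip (5), 1 line per library, for Areg, Hbegf, Lrig1, Erbb3, the receptor inhibitor Errfi1 and the ordering gene Apoa4. Areg ends at 114.2 to 135.4 CPM in all 3 libraries from 232.8 to 418.8 CPM at the base, and Errfi1 in WT lies below both cKO libraries in every bin.

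The effect of Arid3a loss was read as the log2 ratio of CPM + 5 in each cKO library over WT and tested with edgeR on the 3 sums. WT had 1 library, so the spread came from the cKO libraries alone (1 residual degree of freedom) and WT was assumed to vary like them. Because edgeR pools that spread across genes, an SE or p-value does not measure the spread of 1 gene alone. Over all epithelial cells none of the 8 members was called at an adjusted p under 0.05, beside 0.696% of 16670 genes. At an unadjusted p under 0.05 it was 1 of 8, Hbegf, beside 11% of genes, and DESeq2 also called none.

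The receptors were close between genotypes. Egfr was at 11.01, 11.2 and 11.9 CPM in cKO 1, cKO 2 and WT, Erbb2 at 34.4, 34.6 and 37.6 CPM. Erbb3 was at 97.0, 89.5 and 92.7 CPM and Lrig1 at 19.5, 16.0 and 18.5 CPM. For Egfr and Erbb2 WT was above both cKO libraries by no more than 0.11 on the log2 scale, while for Erbb3 and Lrig1 it lay between them. Tgfa was at 7.54, 7.55 and 7.50 CPM, nearly equal in all 3 libraries. Areg (158.9, 110.6 and 124.5 CPM) and Ereg (1.78, 0.963 and 1.34 CPM) had WT between the cKO libraries.

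Hbegf had the largest ratio of the 8 genes. It was at 355.3 CPM in cKO 1 (exact Poisson 95% interval 351 to 360), 256.7 CPM in cKO 2 (253 to 261) and 204.6 CPM in WT (201 to 208), so both cKO libraries were above WT by more than counting error. The log2 ratios were 0.78 and 0.32 (SD 0.326), so the distance between cKO 1 and cKO 2 exceeded that between cKO 2 and WT. The log2 fold change was 0.62 ± 0.159 (unadjusted p = 0.00400, adjusted p = 0.189, edgeR), which did not pass. With the shares of the cell classes held equal in the 3 libraries Hbegf was at 347, 256 and 209 CPM, with ratios of 0.72 and 0.29.

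In ISC and TA cells the same order held, at 363.4, 235.3 and 196.9 CPM (log2 ratios 0.87 and 0.25). The log2 fold change was 0.61 ± 0.164 (adjusted p = 0.0733), and no member was called, beside 0.873% of 14432 genes; at an unadjusted p under 0.05 it was Hbegf alone, beside 7.36%. This value lay near the threshold, and 5 of 7 alternatives brought it below 0.05. These were DESeq2 size factors in edgeR (adjusted p = 0.00331), no filter on low counts (0.00204), removal of the doublets that Scrublet marked (0.00716), a cluster resolution of 0.8 (0.0129) and no integration (0.00260), whereas wider cell limits (0.120) and DESeq2 (1.00) did not. The fold change stayed between 0.60 and 0.61 in all 7. Calls over all genes moved as well, from 126 to between 48 with DESeq2 and 229 after doublet removal. They also rose with DESeq2 size factors, with no filter and without integration, so the Hbegf calls came with more calls of other genes there. The other 7 members had adjusted p-values of at least 0.888.

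In enterocytes, Hbegf stood at 307.2, 285.5 and 243.9 CPM (log2 ratios 0.33 and 0.22), a fold change of 0.29 ± 0.118 on the log2 scale (adjusted p = 0.216). None of the 8 members was called, beside 3.17% of 12416 genes, and 1 passed at an unadjusted p under 0.05 (Hbegf), beside 14.2%. With the Ccl20 cluster added to the enterocytes the value was 0.50 (adjusted p = 0.0525). Lrig1 was at 5.67, 2.78 and 5.62 CPM, where cKO 2 stood below the other libraries (adjusted p = 0.526).

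Hbegf was above WT in both cKO libraries in each of the 9 cell groups compared, several of them nested, a property of 34.8% of genes over all cells, 34.2% in ISC and TA cells, 34.4% in ISC-like and 34.9% in TA-like cells, 34.1% in enterocytes, 32.4% in the Ccl20 cluster, 35.5% in goblet-like, 37% in enteroendocrine-like and 31.1% in tuft-like cells. The ratios were largest in the unnamed Ccl20 cluster, where Hbegf was at 620.9, 408.6 and 290.0 CPM in cKO 1, cKO 2 and WT (log2 ratios 1.09 and 0.49). In goblet-like cells it was at 196.7, 123.9 and 94.2 CPM (1.02 and 0.38). In enteroendocrine-like cells cKO 2 (174.6 CPM) was level with WT (171.0 CPM), but the 2 clusters of this class differed. In the larger one (175 cells) Hbegf was at 245.8, 152.0 and 111.5 CPM in cKO 1, cKO 2 and WT (1.11 and 0.43). In the smaller one (52 cells) it was at 477.7, 202.7 and 240.0 CPM (0.98 and -0.24). Paneth-like cells were not among these groups, and Hbegf was at 47.2, 9.83 and 23.3 CPM in them, with WT between the cKO libraries. Within the enterocyte-like cells, a cluster of 387 cells led by Akp3 had both cKO libraries below WT (221.2, 243.2 and 253.8 CPM). A group of genes set apart by size was defined by a mean of at least 5 CPM and ratios of the same sign and at least 0.5 in both cKO libraries, and Hbegf was in it for none of these groups. No member was set apart over all cells (beside 0.918% of genes), in ISC and TA cells (0.7%), ISC-like cells (0.682%), TA-like cells (0.733%), enterocytes (1.33%), the Ccl20 cluster (1.04%) or goblet-like cells (1.97%).

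In the smaller classes 2 member values met that size. Areg in tuft-like cells was at 25.7, 23.2 and 65.4 CPM, from 19, 13 and 52 UMIs, and the log2 ratios were -1.20 and -1.32; 9.17% of genes were set apart in that small class. Lrig1 in enteroendocrine-like cells was at 26.1, 28.8 and 15.6 CPM, from 36, 42 and 43 UMIs (ratios 0.60 and 0.71), beside 3.49% of genes. In the larger enteroendocrine cluster alone (175 of 227 cells) the ratios of Lrig1 were 0.49 and 0.45, below that size, so the call depended on the smaller cluster. Neither class was tested with edgeR. In the Ccl20 cluster Areg was at 260.9, 151.2 and 122.7 CPM (log2 ratios 1.06 and 0.29), high in cKO 1. The plot of ratios by group shows these differences for the 4 larger groups.

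**Figure D3:**
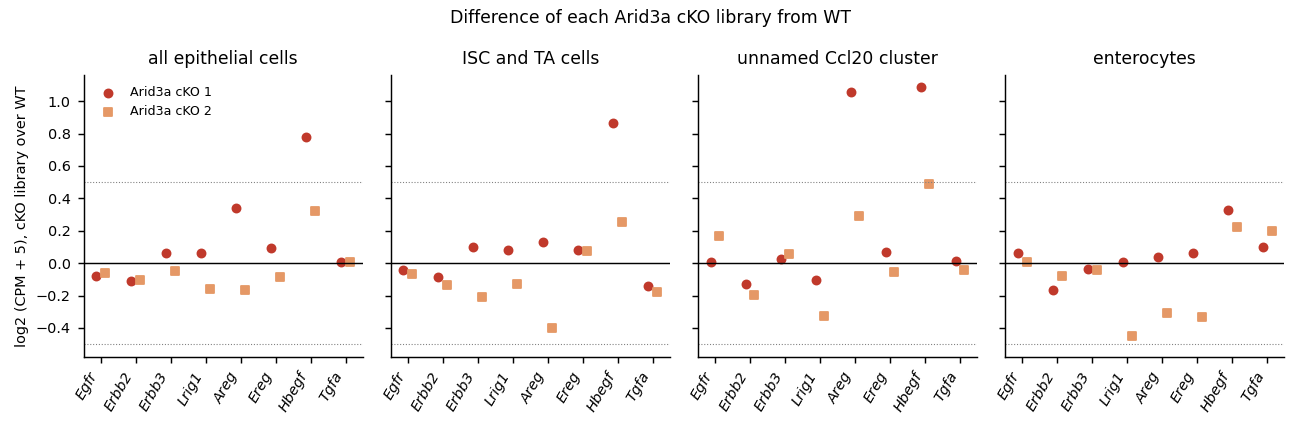
Log2 ratio of CPM + 5 in each Arid3a cKO library over the 1 WT library for the 8 genes in 4 cell groups; the solid line is no difference and the dotted lines are ±0.5. Hbegf is above 0 in both cKO libraries in every panel, from 0.22 to 1.09, with cKO 1 the higher each time.

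Whether the genotype ratio differed between enterocytes and crypt cells was tested as an interaction over the 6 sums. None of the 8 members was called, beside 0.388% of 14678 genes, and at an unadjusted p under 0.05 it was 1 of 8 (Tgfa), beside 7.04%. The interaction value of Hbegf was -0.30 ± 0.162 (adjusted p = 0.787) and that of Tgfa 0.51 ± 0.237 (adjusted p = 0.667).

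Among the other genes of the pathway was Errfi1, which encodes an inhibitor that binds the EGF receptor kinase and is induced by the receptor's own signalling. In cKO 1, cKO 2 and WT it was at 96.1, 83.7 and 69.3 CPM in ISC and TA cells and 59.0, 48.6 and 38.7 CPM in the Ccl20 cluster. In goblet-like cells (170.7, 120.2 and 125.6 CPM) WT lay between the cKO libraries. Of the groups tested with edgeR, Errfi1 was called in enterocytes alone. It was at 86.4, 91.7 and 55.8 CPM there in cKO 1, cKO 2 and WT, so both cKO libraries were above WT and near each other. The log2 fold change was 0.68 ± 0.106 (adjusted p = 1.72e-05), and it was called under all 8 alternatives, from 0.59 to 0.70, including DESeq2 (adjusted p = 0.00915). Over all epithelial cells Errfi1 was at 87.9, 84.8 and 65.6 CPM and was not called (0.43 ± 0.0931, adjusted p = 0.102).

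A further 4 genes of the lists, named after their values were seen, were called higher in cKO enterocytes at low levels. Nr4a1, an early-response nuclear receptor, was at 4.39, 2.83 and 0.984 CPM (log2 fold change 1.89, adjusted p = 0.000481), and Phlda1, a MAP kinase target, at 7.90, 8.45 and 4.54 CPM (0.85, adjusted p = 0.00589). Braf, a kinase of the relay, was at 6.84, 7.10 and 3.75 CPM (0.90, adjusted p = 0.00669), and Spred1, a brake on RAS signalling, at 3.18, 2.16 and 0.984 CPM (1.46, adjusted p = 0.0199). In DESeq2 none of these 4 was called (adjusted p = 0.174 to 0.965), nor without integration (0.0838 to 0.343), and with wider cell limits Braf (0.0551) and Phlda1 (0.220) were not. By list, 2 of 10 brakes tested, 1 of 16 relay genes, 1 of 6 MAP kinase targets and 1 of 11 early-response genes were called higher and none lower, beside 1.43% of all genes higher and 1.74% lower.

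In ISC and TA cells 1 pathway gene was called, the early-response factor Atf3 (log2 fold change 0.81, adjusted p = 0.0250, log2 ratios 1.16 and 0.29), beside 0.367% of genes higher. It was not called by DESeq2 (adjusted p = 1.00), and the other 6 alternatives gave adjusted p-values of 2.06e-06 to 0.0461. Over all epithelial cells none of the genes of the 6 lists was called.

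Several pathway genes were set apart by size in single classes, which were not tested with edgeR. Of the 59 genes of the lists outside the 8 members, 4 of 44 at or above 5 CPM were set apart in the Ccl20 cluster (9.09%, beside the 1.04% of all genes), 2 of 46 in goblet-like cells (4.35%, beside 1.97%), 1 of 45 in TA-like cells (2.22%, beside 0.733%), 1 of 48 in enteroendocrine-like cells (2.08%, beside 3.49%) and 7 of 49 in tuft-like cells (14.3%, beside 9.17%). In the Ccl20 cluster Atf3 was at 625, 379 and 236 CPM in cKO 1, cKO 2 and WT (log2 ratios 1.39 and 0.67), Phlda1 at 25.6, 19.5 and 9.07 CPM (1.12 and 0.80) and Dusp1, a MAP kinase phosphatase, at 76.6, 70.9 and 45.5 CPM (0.69 and 0.59). Ccnd1, the cyclin D1 gene, was lower there, at 30.2, 31.3 and 59.0 CPM (-0.86 and -0.82), and also in TA-like cells (-0.65 and -0.55). Both Phlda1 (0.73 and 0.53) and Atf3 (1.01 and 0.55) were set apart in goblet-like cells too, and the sheddase gene Adam17 in enteroendocrine-like cells (18.2, 17.1 and 10.2 CPM; 0.61 and 0.54). In tuft-like cells, the smallest class compared, they were the adaptor Grb2 and the receptor brake Socs4 lower and the RAS inhibitor Spry2, the phosphatases Ptpn11 and Dusp5, the transcription factor Etv5 and the early-response gene Zfp36 higher, with ratios between 0.52 and 1.09 in size.

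The 11 early-response genes (Fos, Jun, Atf3 and others), which are transcribed soon after growth factor signalling and also after tissue dissociation, were read beside Hbegf. Their summed level over all cells was 5149, 4444 and 4250 CPM in cKO 1, cKO 2 and WT, in the same order as Hbegf, as it was in the Ccl20 cluster (6216, 5179 and 3891 CPM). In ISC and TA cells (6590, 5281 and 5310 CPM) and in enterocyte-like cells (3709, 3593 and 3625 CPM) cKO 2 was level with WT, whereas Hbegf was above WT there in both cKO libraries. Of the 11 genes 9 were above WT in both cKO libraries over all cells, beside 34.8% of genes, and the median log2 ratio was 0.20 against -0.00915 for all genes. In the Ccl20 cluster and in goblet-like cells it was 11 of 11, with medians of 0.52 and 0.31, beside 32.4% and 35.5% of genes. It was 6 of 11 in ISC and TA cells (beside 34.2% of genes), 6 of 10 in enterocytes (34.1%) and 1 of 11 in enteroendocrine-like cells (37%). Taken alone, ISC-like cells had 10 of 11 (34.4%, median 0.24) and TA-like cells 5 of 11 (34.9%, median 0.13). Tuft-like cells had 6 of 11 (31.1%).

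Cells of all libraries together were therefore divided by that summed level into a low, a middle and a high group of equal size, and Hbegf was read in each. In the low group Hbegf was at 84.7, 82.2 and 77.2 CPM in cKO 1, cKO 2 and WT (log2 ratios 0.13 and 0.09). In the middle group it was at 372.0, 302.4 and 249.1 CPM (0.57 and 0.27), and in the high group at 539.3, 406.5 and 321.7 CPM (0.74 and 0.33). Over all cells the libraries were close where early-response genes were low and apart in the same order in the other groups. The high group held 861, 484 and 520 cells of the 3 libraries, and early-response levels still differed within it (8088, 7482 and 7368 CPM). Of these cells, 190, 72 and 42 were from the Ccl20 cluster and 419, 201 and 273 were ISC and TA cells. The low group of 621, 535 and 709 cells held 378, 288 and 323 enterocyte-like cells. Class make-up thus differed between groups and libraries, and its part in the Hbegf pattern was not tested. Areg in the low group was at 36.7, 37.4 and 55.2 CPM, below WT in both cKO libraries. Errfi1 was above WT in both cKO libraries in each group, with ratios of 0.19 to 0.49. Within single classes the pattern of Hbegf did not hold throughout. In the Ccl20 cluster the high group was at 758.2, 552.4 and 605.0 CPM in cKO 1, cKO 2 and WT (log2 ratios 0.32 and -0.13). Its low group had ratios of -0.12 and 0.20. In ISC and TA cells the low group had ratios of -0.03 and 0.29, whereas the middle (0.56 and 0.20) and high groups (0.72 and 0.30) kept the order. Enterocyte-like cells kept it in the middle (0.38 and 0.30) and high groups (0.26 and 0.21), and their low group had ratios of 0.16 and -0.0074. The part of dissociation in these differences was not tested.

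**Figure D4:**
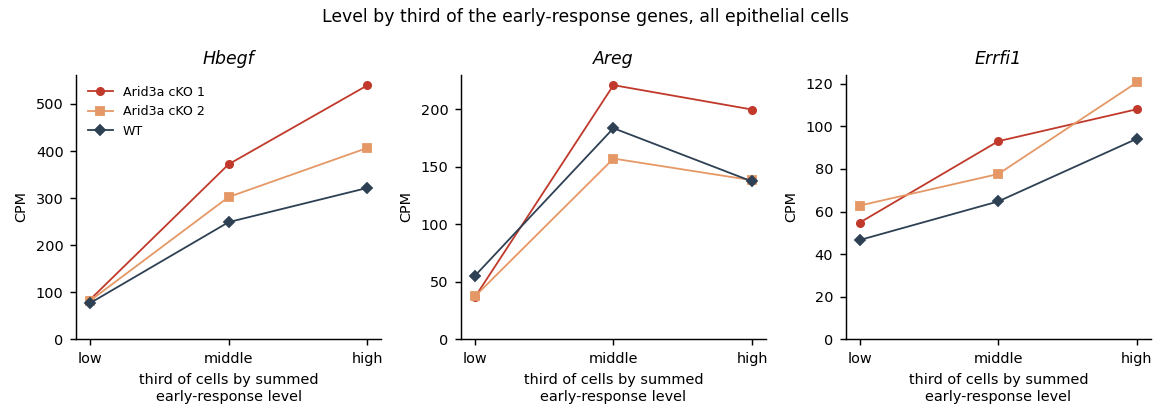
CPM (linear axis from 0) of Hbegf, Areg and Errfi1 in the low, middle and high group of all cells by summed level of 11 early-response genes, 1 line per library. Hbegf is at 77.2 to 84.7 CPM in the low group of every library and at 539.3, 406.5 and 321.7 CPM in the high group of cKO 1, cKO 2 and WT.

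Within libraries the genes also differed in how evenly cells carried them. The top 5% of cells held 36.1%, 39.4% and 34.9% of the Areg UMIs in cKO 1, cKO 2 and WT. In the same order the share was 41.1%, 36.4% and 39.4% for Egfr, 20.6%, 21.6% and 23.0% for Hbegf and 15.9%, 16.8% and 17.4% for Erbb3. Enterocyte-like cells were 36.9% to 38.9% of cells and gave 57.3% to 65.0% of all Areg UMIs. ISC-like cells were 17.6% to 20.5% of cells and gave 35.8% to 37.2% of the Lrig1 UMIs. TA-like cells, 11.2% to 13.4% of cells, gave a further 28.7% to 33.9% of them.

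The most similar patterns, given here for several of the genes, were sought by Pearson r of log2 CPM + 5 over the 27 sums of class and library, which share libraries and depth, among 9563 genes. Closest to Egfr were 2810025M15Rik and Wwp1 (r = 0.942 and 0.937), to Lrig1 Pck2 (0.967) and to Erbb3 Ddi2 (0.976). Closest to Areg was Ihh (0.960), which encodes the hedgehog ligand of the intestinal epithelium, closest to Hbegf was Sat1 (0.953) and closest to Tgfa was Clstn1 (0.892). Within the set, Egfr and Lrig1 had an r of 0.799, Areg had an r of 0.897 with Erbb2 and 0.891 with Erbb3, and Lrig1 and Areg had an r of -0.328. The likeness to Erbb2 and Erbb3 was not particular to Areg, since Hbegf had an r of 0.849 and 0.875 with them and 0.827 with Areg. The 27 sums included the Gm42418 cluster and Paneth-like cells, the latter lowest of the classes ordered for these 4 genes. The part of these classes in the r values was not tested.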

How the data were processed

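scRNA-seq libraries from 3 samples (Arid3a cKO, n = 2; WT, n = 1) were grouped by the genotype in their labels. The authors counted reads with CellRanger 5.0 (per the file headers) and deposited raw UMI counts per gene and barcode; the submitters' processing notes name only human builds (GRCh38 and hg19), so the build of the counting is not settled. Of the gene identifiers, 51633 of 51912 matched GENCODE M21, and promoters were taken from RefSeq (GRCm38.p6), whose table was used for 5 of the 8 members. The members and gene lists were chosen with earlier results of these data known. Nothing in the labels ties the cKO libraries to litters, so p-values rest only on the spread between these samples, pooled across genes by edgeR.

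Cells were clustered in Seurat 5.3.0 (CCA integration on 3000 features, 2000 variable genes, 30 components, resolution 0.3) without 68 pathway genes. After the clusters were seen, a cluster was named for a class with at least 3 of its markers among the 50 leading genes (of those seen in 25% of cells), or otherwise for the class whose markers most often reached 1.5-fold (at least 3 and 50% of the list). Doublets were kept; Scrublet (scanpy 1.11.5, seed 1) marked 1.41%, 2.19% and 2.41% of cells in cKO 1, cKO 2 and WT, and their removal was an alternative.

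UMIs were summed per library and class, expressed as CPM here, and tested with edgeR 4.0.16 (R 4.3.3; TMM, filterByExpr with a minimum count of 10, quasi-likelihood test, Benjamini-Hochberg over all genes tested, threshold 0.05). Log2 ratios used a pseudocount of 5 CPM and therefore understate changes of low genes. DESeq2 1.42.0 and other settings were alternatives. Poisson intervals (95%) and floors of 3 counts cover counting error only. Named were all members, the rest of the family, at most 4 genes per list set apart by size, and, of the 3 patterns most like each member, the closest; none is given for Ereg, whose mean was under 5 CPM, and 1 other is not reported here. In simulated counts 2-fold changes were recovered in 86% of 100 genes for all cells, 95% for ISC and TA cells, 93% for enterocytes and 100% for the class contrast, on 16323, 14072, 12176 and 13229 genes. Of the unchanged genes 6, 10, 11 and 11 were called. Every simulated gene had the same dispersion, and only genes with higher counts were changed. The recovery therefore does not give the power for single members.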

Additional observations from a re-analysis of the deposited data

Results flagged for a closer look

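For Egfr and Tgfa the genotype ratios had opposite signs in ISC and TA cells and in enterocytes. Both cKO libraries were below WT in ISC and TA cells and above WT in enterocytes, and the mean log2 ratio in enterocytes exceeded that in ISC and TA cells by 0.0923 for Egfr and by 0.308 for Tgfa. The interaction test of the same difference gave 0.15 ± 0.239 (adjusted p = 0.976, edgeR) for Egfr and 0.51 ± 0.237 (unadjusted p = 0.0410, adjusted p = 0.667) for Tgfa, so neither passed. Egfr had 83 to 115 UMIs per library in enterocytes, where cKO 2 was above WT by a log2 ratio of 0.0077 alone and wider cell limits gave a log2 fold change of -0.099. In TA-like cells taken alone, Egfr in cKO 1 was above WT (log2 ratio 0.23).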

How the results depend on the processing

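No paired analysis was possible because a single replicate number, 1, occurs in both genotypes. Leaving out a cKO library leaves 1 against 1, which gives ratios but no test and no count of calls, so those counts were not run. The number of genes called over all epithelial cells moved from 116 to 60 with DESeq2 size factors, 677 with no filter on low counts and 70 after doublet removal. In ISC and TA cells it moved from 126 to 213, 48, 227, 229 and 217 with DESeq2 size factors, DESeq2, no filter, doublet removal and no integration. In enterocytes it moved from 394 to 84, 248 and 167 with DESeq2, wider cell limits (500 genes, 25% mitochondrial UMIs) and no integration. With a pseudocount of 1 CPM the genes set apart by size went from 85 to 132, 66 to 112 and 105 to 161. In the order from villus base to tip the count of 1 member became 0 without integration and 1 to 2 when each library was left out. The class contrast kept 10071 to 12195 calls under all 12 alternatives, and 10836 to 11042 with a library left out. Member values that changed sign were all uncalled. With wider limits they were Erbb3 -0.00722, Lrig1 0.017 and Ereg -0.23 over all cells, Lrig1 0.058 in ISC and TA cells, Egfr -0.099 in enterocytes, and Egfr -0.053 and Erbb3 -0.024 in the interaction. After doublet removal they were Lrig1 0.0023 in ISC and TA cells and Erbb2 0.0081, Erbb3 -0.0069 and Areg -0.015 in the interaction. Without integration they were Erbb3 0.024 in enterocytes and Erbb2 0.037 and Areg -0.17 in the interaction, where Erbb2 was 0.014 with no filter. Areg in enterocytes was 0.043 with the Ccl20 cluster added. For Hbegf over all cells only the fit with no filter passed (0.61, adjusted p = 1.47e-07), beside adjusted p-values of 0.189 to 1.00 otherwise. The causes were not tested. The interaction, the library-size-only fit, the added Ccl20 cluster, the early-response groups of cells and the recounts by size were chosen after seeing the data. DESeq2 gave no adjusted p for 4 member values.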
